A study of Homo sapiens with 6 samples.

Results

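Small nucleolar RNAs (snoRNAs) and small Cajal body RNAs were examined in RNA of extracellular vesicles (EVs) from CD47- and WT Jurkat T cells. Members were the genes whose symbol begins with SNORA, SNORD or SCARNA, without the imprinted SNORD113, SNORD114, SNORD115 and SNORD116 groups, measured by a probe set annotated to exactly 1 gene. Where a gene had several such probe sets, the brightest was used. This gave 146 of the 18417 genes measured in this way, of which 69 were C/D box snoRNAs, 61 were H/ACA box snoRNAs and 16 were small Cajal body RNAs. All 146 matched a RefSeq gene, and 127 of them are typed there as snoRNAs. SNORD13P1, SNORD13P2 and SNORD13P3 are typed as pseudogenes and are counted here with the C/D box snoRNAs.

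The CD47- EVs (3 arrays) came from JinB8 cells, a single somatic mutant line derived from Jurkat T cells, and the WT EVs (3 arrays) came from the parental Jurkat line, labelled JK. Both lines were grown in the same serum-free HITES medium, and EVs were precipitated from the supernatant with an Exo-quick or an Exo-spin kit. The kit behind each preparation is not stated in these sources. Total RNA was labelled and hybridized to whole-transcript human gene arrays. Nothing in the labels says whether the replicates came from separate cultures, so p-values measure the spread between these preparations, which may be technical. Because 1 mutant line stands for the CD47- genotype, loss of CD47 and other differences between the lines cannot be told apart. A lower signal can also mean that fewer vesicles carry an RNA or that each carries less of it, and these cannot be told apart.

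C/D box snoRNAs carry fibrillarin and guide the methylation of ribose in ribosomal RNA, whereas H/ACA box snoRNAs carry dyskerin and guide the conversion of uridine to pseudouridine. Small Cajal body RNAs have one or both of these architectures and direct the same modifications on spliceosomal RNAs. In human cells most are excised from introns of host genes, many of which encode ribosomal proteins or translation factors, while a few, such as U3 and U13, have promoters and cap structures of their own.

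Values were log2 signals after robust multiarray averaging (RMA), and the median over all probe sets lay between 5.08 and 5.14 on the 6 arrays. Pairs of arrays correlated at 0.981 to 0.989 over genes. The CD47 probe set read 4.58, 4.67 and 4.94 in CD47- EVs and 4.72, 4.69 and 4.72 in WT EVs, so mRNA signal at this probe set did not separate the groups. Of 12 T cell markers, 8 lay above the median of 341 olfactory receptor genes, which served as a gauge of background, and LCK and CD7 lay above their 95th percentile. None of 7 measured EV markers lay above that percentile. Above the median there were also 4 of the 7 EV markers, 2 of 2 erythroid, 2 of 4 epithelial and 2 of 4 liver markers. So were 1 of 3 B cell, 1 of 4 myeloid and 1 of 4 endothelial markers, so the median alone does not mark a cell type. No marker of any cell type examined passed the test, and KRT18 was the only marker of another cell type above the percentile.

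Most members gave dim signals. The olfactory receptor genes had a median of 5.49 and a 95th percentile of 6.79 on the log2 scale, and 40 of the 146 members averaged above that median while 14 averaged above that percentile. By class, 5 C/D box snoRNAs, 8 H/ACA box snoRNAs and 1 small Cajal body RNA were above the 95th percentile. For the 106 members at or below the olfactory receptor median, signal from the RNA could not be told from background, so a small difference there says little about the RNA. Members between that median and the 95th percentile also lay within the range of the gauge, so their signals may be background too. The brightest olfactory receptor gene averaged 8.05, and SNORD95 was the only member above it. RefSeq gives lengths of 60 to 205 nucleotides for the C/D box members, 123 to 236 for the H/ACA box members and 125 to 421 for the small Cajal body RNAs. Brightness differs between probe sets for technical reasons as well, so levels of different members were not set against each other.

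No member differed between CD47- and WT EVs at an adjusted p under 0.05 (limma, Benjamini-Hochberg over all 18417 genes). Over all genes, 123 were higher (0.668%) and 3 were lower (0.0163%) in CD47- EVs, together 126 (0.684%), so a count of 0 among 146 members is near the background. Without adjustment, 2 members were higher and 5 were lower at p under 0.05, against 5.16% and 2.87% of all genes. The 3 CD47- arrays lay entirely above the 3 WT arrays for 2 members and entirely below them for 6, against 7.3% and 5.53% of all genes. The balance of both counts turned with the scaling. With each array centered on its olfactory receptor median, 10 members were higher and 2 lower at unadjusted p under 0.05 (9.14% and 0.738% of all genes), and 13 lay entirely above and 2 entirely below (13.7% and 1.52%). After further quantile normalization, 0 were higher and 8 lower (4.81% and 3.91%), and 1 lay entirely above and 10 entirely below (6.9% and 6.97%).

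The precision bounds the size of a difference. The 95% interval lay wholly within 0.5 on the log2 scale on either side of 0 for 141 members and within 0.3 for 92. The median standard error over members was 0.09. These intervals describe the RMA signal, which for dim probe sets can change less than the RNA does.

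The 3 classes were close to each other. The median log2 difference, CD47- minus WT EVs, was -0.01 over C/D box snoRNAs, -0.05 over H/ACA box snoRNAs and -0.000385 over small Cajal body RNAs, beside 0.0029 over all genes. Differences above 0 were seen in 28 of 69 C/D box snoRNAs, 22 of 61 H/ACA box snoRNAs, 8 of 16 small Cajal body RNAs and 9444 of all genes. The olfactory receptor genes that served as the gauge leaned lower too, with a median of -0.05 and 104 of 341 above 0. The arrays of the groups overlapped in every class. Median C/D box signals were 3.84, 3.80 and 3.86 in CD47- EVs and 3.83, 3.92 and 3.82 in WT EVs. Median H/ACA box signals were 5.03, 4.68 and 4.75 in CD47- EVs and 4.86, 4.84 and 5.05 in WT EVs. Median signals of small Cajal body RNAs were 5.07, 5.09 and 5.13 in CD47- EVs and 5.24, 5.09 and 5.02 in WT EVs. Signs this small depended on scaling. With each array centered on its olfactory receptor median, the values became 0.05 for C/D box snoRNAs, 0.01 for H/ACA box snoRNAs and 0.06 for small Cajal body RNAs, while the median of all genes moved to 0.06.

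**Figure D1:**
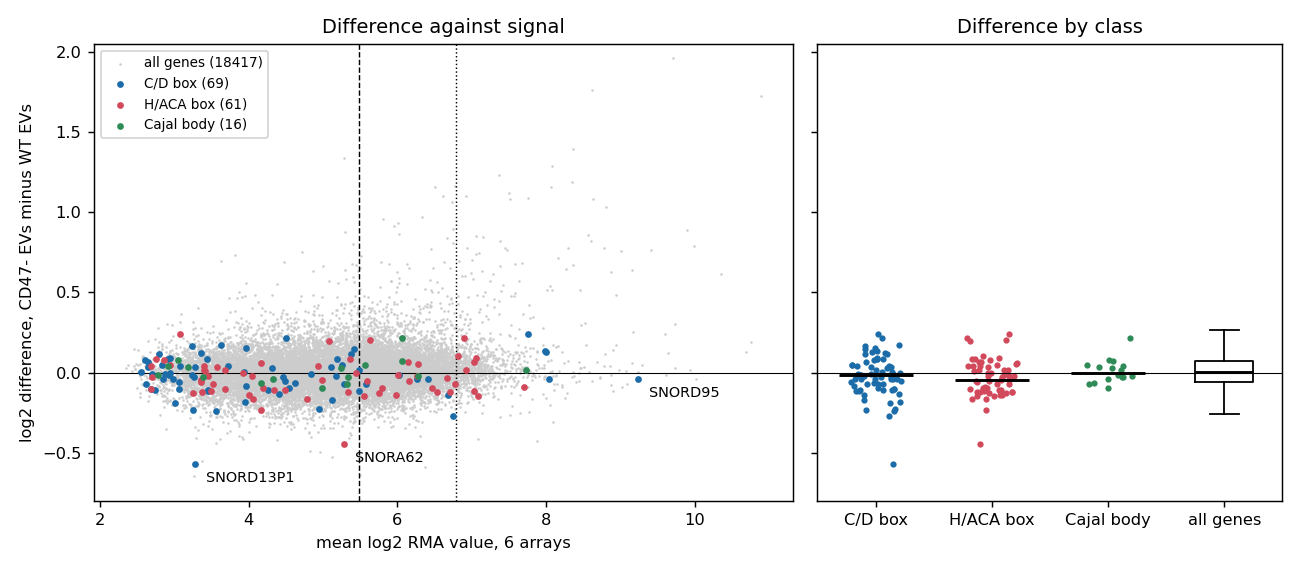
Left, log2 difference (CD47- EVs minus WT EVs) against mean log2 RMA value for all genes (grey) and members by class. The dashed and dotted lines mark the median (5.49) and 95th percentile (6.79) of the olfactory receptor genes. Right, differences by class with black bars at class medians and, for all genes, a box from the first to the third quartile with whiskers to 1.5 times the box height. The members lie around 0, with 133 of 146 between -0.2 and 0.2.

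Among C/D box snoRNAs, the smallest p-value belonged to SNORD13P1, a pseudogene of U13 that lies within PHETA2. It read 2.99, 3.18 and 2.81 in CD47- EVs and 3.45, 3.92 and 3.31 in WT EVs. Every CD47- array was below every WT array, and the difference was -0.57 ± 0.14 (SE, n = 3 each, limma adjusted p = 0.13). All these values lie below the olfactory receptor median, and the lowest adjusted p of any member is this one.

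U13 (SNORD13), which takes part in maturation of the small-subunit ribosomal RNA, was bright, as was 1 of its pseudogenes. SNORD13 read 7.98, 8.13 and 8.06 in CD47- EVs and 7.93, 7.84 and 8.02 in WT EVs, a difference of 0.13 with overlapping groups. SNORD13P3, a pseudogene within KIF9, read 7.73, 8.03 and 7.88 in CD47- EVs and 7.70, 7.78 and 7.44 in WT EVs. Its groups overlapped only between 1 CD47- array and 1 WT array, and the difference of 0.24 had an adjusted p of 0.58 (limma). The third pseudogene, SNORD13P2, differed by -0.01. The 4 U13 genes thus spanned -0.57 to 0.24, and as copies of one RNA they may share probe signal, so their separate values are uncertain.

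The other C/D box members with the smallest p-values were lower in CD47- EVs without passing the adjusted test. SNORD57, from an intron of NOP56, a core protein of the same particles, read 6.47, 6.74 and 6.63 in CD47- EVs and 6.999, 6.92 and 6.72 in WT EVs. The groups overlapped between 1 CD47- array and 1 WT array, and the difference was -0.27 ± 0.10 (SE, limma adjusted p = 0.40). SNORD51, from EEF1B2, read 3.49, 3.37 and 3.46 in CD47- EVs and 3.52, 3.74 and 3.77 in WT EVs, without overlap. SNORD12C, from the noncoding host ZFAS1, read 3.23, 3.23 and 2.95 in CD47- EVs and 3.37, 3.47 and 3.27 in WT EVs, also without overlap. SNORD32A, from the ribosomal protein gene RPL13A, did not overlap either (difference -0.17). The signals of SNORD51, SNORD12C and SNORD32A lay below the olfactory receptor median. On the other side of 0, SNORD45A differed by 0.22 and SNORD104 by 0.17, and both had overlapping groups.

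SNORD95, hosted by RACK1, had the brightest probe set of any member. It read 9.33, 9.08 and 9.25 in CD47- EVs and 9.32, 9.42 and 9.04 in WT EVs, and the groups overlapped throughout (difference -0.04). SNORD46 differed by -0.04, with 8.02, 7.95 and 8.09 in CD47- EVs and 8.33, 7.98 and 7.87 in WT EVs.

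**Figure D2:**
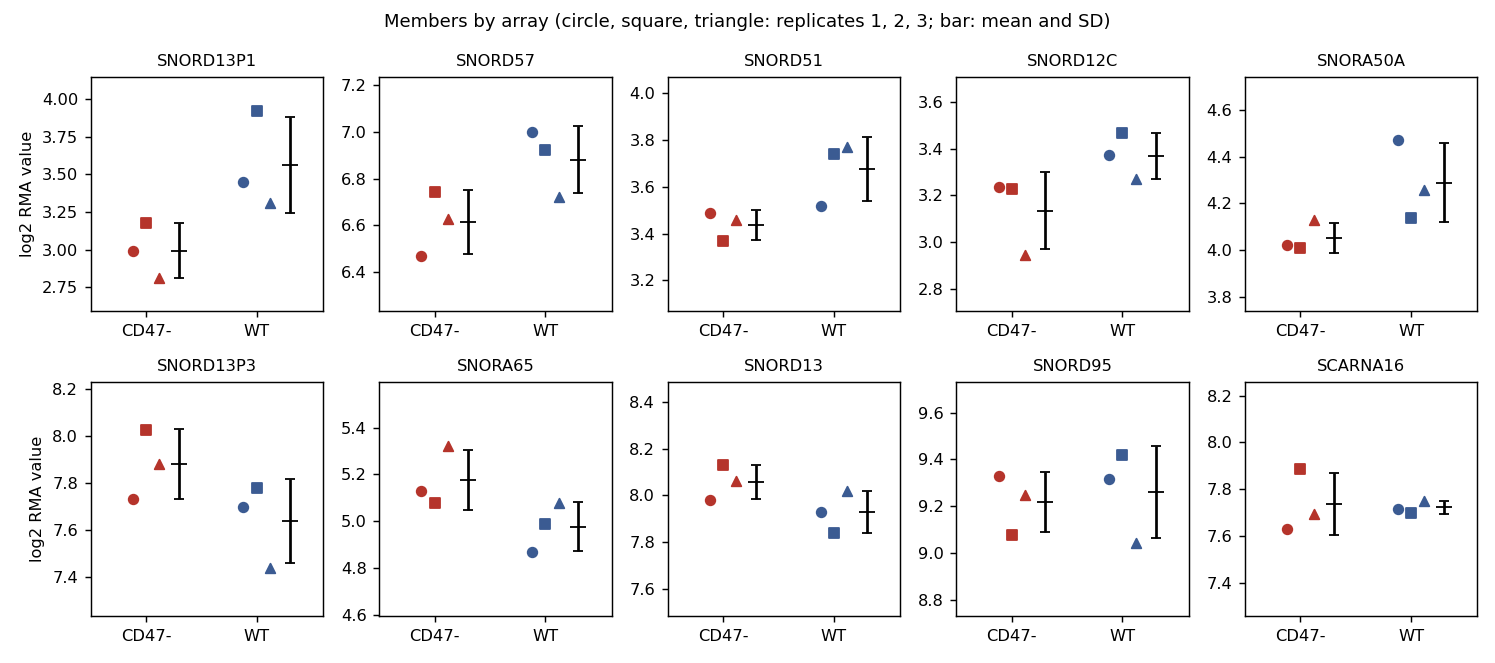
Log2 RMA values of 10 members by array (symbols mark replicates 1, 2 and 3), with CD47- EVs left and WT EVs right and a bar for the mean and SD of 3 arrays. Each panel has its own vertical range of at least 1 log2 unit. The groups are apart for SNORD13P1, SNORD51, SNORD12C and SNORA50A, while those of the bright SNORD95 and SCARNA16 overlap.

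Among H/ACA box snoRNAs, SNORA50A, hosted by the deadenylase scaffold gene CNOT1, read 4.02, 4.01 and 4.13 in CD47- EVs and 4.47, 4.14 and 4.26 in WT EVs. The groups did not overlap, and the difference was -0.23 ± 0.09 (SE, limma adjusted p = 0.49). SNORA46, in another intron of CNOT1, differed by -0.17. SNORA70C and SNORA37 differed by -0.16 and -0.14, and the 3 CD47- arrays of SNORA37, at 5.90 to 5.95, were all below the WT arrays, at 5.97 to 6.17. In the other direction, SNORA65 differed by 0.20, SNORA22 by 0.24, SNORA3A by 0.21 and SNORA68 by 0.20, and none of these 4 passed the adjusted test. SNORA65 read 5.13, 5.08 and 5.32 in CD47- EVs and 4.87, 4.99 and 5.08 in WT EVs, with 1 pair of arrays at nearly the same value.

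The brightest H/ACA box probe sets belonged to SNORA71D, SNORA80A and SNORA57. SNORA71D, hosted by SNHG17, read 7.45, 7.71 and 7.78 in CD47- EVs and 7.89, 7.64 and 7.69 in WT EVs. SNORA80A differed by -0.15 and SNORA57 by 0.09, and the groups overlapped for all of the 3.

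Among small Cajal body RNAs, SCARNA16 alone exceeded the 95th percentile of the background gauge. It read 7.63, 7.89 and 7.69 in CD47- EVs and 7.72, 7.70 and 7.75 in WT EVs, a difference of 0.01 with the WT arrays inside the CD47- range. SCARNA22 differed by 0.21 (limma adjusted p = 0.74) and SCARNA17 by 0.07, while SCARNA6 differed by -0.10, SCARNA7 by -0.07 and SCARNA11 by -0.02. A dimmer probe set of SCARNA17 differed by -0.08.

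SCARNA16 is shown in sequence because RefSeq (GRCh38.p14) places both mature strands of miR-6516 inside it, on the plus strand at chr17:77089428-77089449 and chr17:77089469-77089490. They are written 5′ to 3′ with the seed, bases 2 to 8, in capitals.
hsa-miR-6516-5p: uUUGCAGUaacaggugugagca
hsa-miR-6516-3p: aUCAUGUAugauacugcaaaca
The 2 strands have different seeds, and the SCARNA16 probe set does not tell the host RNA from these products.

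Some snoRNAs have near-identical copies that share probe sets, and these were outside the 146. Probe sets with several symbols that include a member symbol numbered 59, and 14 of them held member symbols only. The rest, shared with other genes, were not examined. The U3 genes (SNORD3A, SNORD3B-1, SNORD3B-2, SNORD3C and SNORD3D), whose RNA guides early cleavages of the ribosomal precursor, shared 5 probe sets with the same values. They read 6.73, 6.12 and 6.71 in CD47- EVs and 6.67, 6.23 and 6.53 in WT EVs, overlapping, with a difference of 0.04. The pair SNORD109A and SNORD109B read 4.78, 4.85 and 4.81 in CD47- EVs and 4.97, 5.19 and 5.01 in WT EVs, without overlap (difference -0.25, limma adjusted p = 0.33). The mean signal of this pair, 4.93, lay below the olfactory receptor median, and 5.53% of all genes were separated in that direction. SNORD103A and SNORD103B differed by 0.12, also without overlap, but at signals of 2.43 to 2.66, far below the olfactory receptor median.

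For 144 of the 146 members, the widest range among the 3 arrays of a group exceeded the difference between the group means. The wider of the group ranges tends to exceed a small difference, and no share over all genes is set beside this count. It therefore does not mark the members as variable. The widest ranges were those of SNORA62, SNORD117 and SNORD30. SNORA62, hosted by RPSA, read 6.48, 3.95 and 4.75 in CD47- EVs and 5.77, 4.99 and 5.75 in WT EVs. Its difference of -0.45 had a 95% interval of -1.45 to 0.55, and CD47- replicate 1 was the highest and replicate 2 the lowest of the 6 arrays. SNORD117 behaved alike, with 4.98, 3.80 and 4.22 in CD47- EVs and 4.44, 4.54 and 4.43 in WT EVs. SNORD30, from SNHG1, read 6.21, 5.72 and 6.10 in CD47- EVs and 6.41, 5.62 and 6.04 in WT EVs, with replicate 2 lowest in both groups. The spread within a group exceeded 0.5 for 15 members and stayed under 0.3 in both groups for 77.

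**Figure D3:**
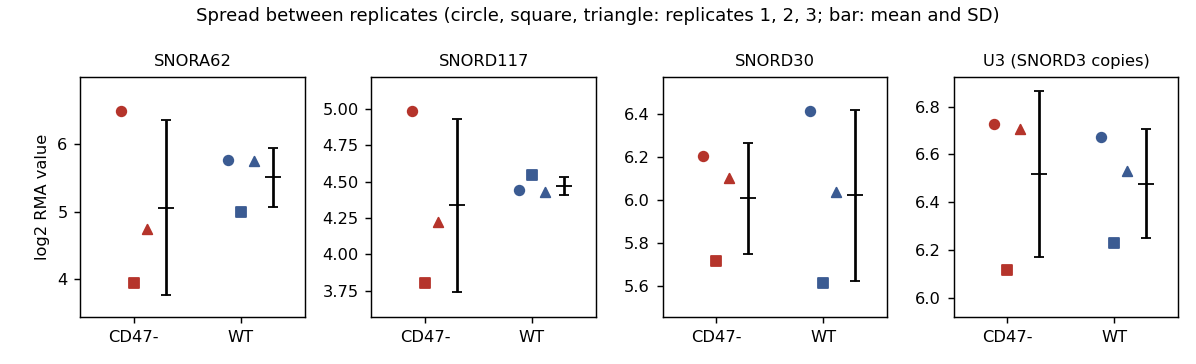
Log2 RMA values by array for SNORA62, SNORD117, SNORD30 and the shared U3 probe sets, with CD47- EVs left and WT EVs right, symbols for replicates 1, 2 and 3, and a bar for the mean and SD of 3 arrays. Vertical ranges differ between panels. The 3 CD47- arrays of SNORA62 run between 3.95 and 6.48, wider than the gap between the groups.

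An intronic snoRNA is cut from the precursor transcript of its host when both lie on the same strand, which was not checked. By position in RefSeq, 144 members lay inside another gene, in 103 hosts, of which 26 held 2 or more members. The 33 members in ribosomal protein genes had a median difference of 0.01, the 81 in other coding genes -0.03 and the 30 in noncoding or pseudogene transcripts -0.04. All 7 members in GAS5, a noncoding host whose exons are little conserved, had differences below 0, between -0.23 and -0.04, but 3 of the 7 were above 0 after centering on the gauge, and none passed the adjusted test. The one nearest 0, SNORD74, read 6.26, 6.35 and 6.55 in CD47- EVs and 6.44, 6.40 and 6.45 in WT EVs, with overlap. The 3 SNORA5 copies in TBRG4 differed by -0.14 to -0.12. In RABGGTB, by contrast, SNORD45A, SNORD45B and SNORD45C spanned -0.19 to 0.22.

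Several host genes, unlike any of the snoRNAs, passed the adjusted test. Of 79 measured genes that contain a member, 10 were higher in CD47- EVs (12.7%, against 0.668% of all genes) and 0 were lower, with a median difference of 0.07. These shares are not matched for signal. Over all genes, 106 of 7249 above the olfactory receptor median were called higher, against 17 of 11168 at or below it. Of the 79 hosts, 12 exceeded the 95th percentile of the gauge, against 864 of all 18417 genes, whereas 106 of the 146 members lay at or below its median. The hosts that rose encode a chaperone of the HSP70 family (HSPA8), a subunit of mitochondrial ATP synthase (ATP5F1B), translation elongation factor 2 (EEF2), a subunit of the TRiC chaperonin (TCP1), an initiation factor subunit (EIF3A) and the ribosomal proteins RPL3, RPS20, RPLP2, RPS3 and RPL5. The count was 4 without WT replicate 3, 6 without WT replicate 1 and 6 without CD47- replicate 3. HSPA8, EEF2, TCP1 and RPL5 passed whichever array was left out. ATP5F1B failed without WT replicate 3, RPL3 without WT replicate 1 or 3, RPS20 without CD47- replicate 3 or WT replicate 1 or 3, and RPLP2 without CD47- replicate 2 or 3 or WT replicate 3. EIF3A and RPS3 failed in 5 of the 6 cases, all but that without CD47- replicate 1. RPL5 and RPS3 also failed after further quantile normalization.

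HSPA8 showed the widest gap. Its probe set read 8.87, 8.89 and 9.08 in CD47- EVs and 7.88, 7.83 and 7.55 in WT EVs, without overlap (difference 1.19 ± 0.10, SE, limma adjusted p = 0.000159). SNORD14C, from one of its introns, read 5.47, 5.23 and 5.14 in CD47- EVs and 5.26, 5.21 and 5.23 in WT EVs, with overlap (difference 0.04). The difference of HSPA8 exceeded that of SNORD14C by 1.15 (95% interval 0.87 to 1.43) and that of SNORD14E by 1.16.

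RPL3, a ribosomal protein gene, could be set beside a snoRNA above the 95th percentile of the gauge. It read 7.75, 7.57 and 8.06 in CD47- EVs and 6.86, 7.21 and 6.84 in WT EVs (difference 0.82, limma adjusted p = 0.0101; not passed without WT replicate 1 or WT replicate 3). SNORD43 averaged 7.99, above that percentile but below the brightest olfactory receptor gene, which averaged 8.05. It read 7.98, 7.88 and 8.32 in CD47- EVs and 7.98, 7.93 and 7.85 in WT EVs. Apart from the high CD47- replicate 3, SNORD43 overlapped between groups, and RPL3 exceeded it by 0.69 (95% interval 0.41 to 0.96). For SNORD83A and SNORD83B, from the same gene, the excess was 0.79 and 0.86.

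The second bright pair was RPLP2 and SNORA52. SNORA52 read 7.02, 6.95 and 6.95 in CD47- EVs and 7.19, 7.13 and 6.96 in WT EVs, a difference of -0.12, and RPLP2, whose own call rested on the 3 arrays named above, exceeded it by 0.86 (95% interval 0.58 to 1.14). EEF2 exceeded SNORD37 by 0.78, TCP1 exceeded SNORA20 and SNORA29 by 0.89 and 0.90, and ATP5F1B exceeded SNORD59A and SNORD59B by 1.08 and 0.85. SNORD37 was 1 of the 2 members whose CD47- arrays all exceeded the WT arrays, at 2.79, 2.88 and 2.88 in CD47- EVs and 2.72, 2.71 and 2.77 in WT EVs. The other was SNORA60, hosted by SNHG11, with a difference of 0.07.

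Across the 16 pairs whose host rose, the members differed by -0.12 to 0.14 and the host exceeded its snoRNA by 0.36 to 1.16, with every interval above 0. These hosts were picked because they passed, the intervals are not adjusted, and pairs of 1 host are not independent. Of these 16 snoRNAs, 4 were above the olfactory receptor median (SNORD43, SNORA52, SNORD83B and SNORD15A). Only 2, SNORD43 and SNORA52, were above the 95th percentile. The brightest olfactory receptor gene averaged 8.05 and exceeded both, so all 16 had signals within the range of the background gauge. Over all 96 pairs, the interval lay above 0 in 28 and below 0 in 0. Among the 80 pairs whose host did not pass it lay above 0 in 12, including SNORA50A and SNORA46 in CNOT1 (0.52 and 0.46), SNORD12C in ZFAS1 (0.51) and SNORD13P1 in PHETA2 (0.50). These snoRNAs had been named for small p-values among members lower in CD47- EVs, so gaps above 0 follow partly from that pick. PHETA2 itself differed by -0.07, so its gap came from the dim pseudogene SNORD13P1. Of the snoRNAs in these 12 pairs, 3 were above the olfactory receptor median and 1 above the 95th percentile, and all those named here were below the median.

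**Figure D4:**
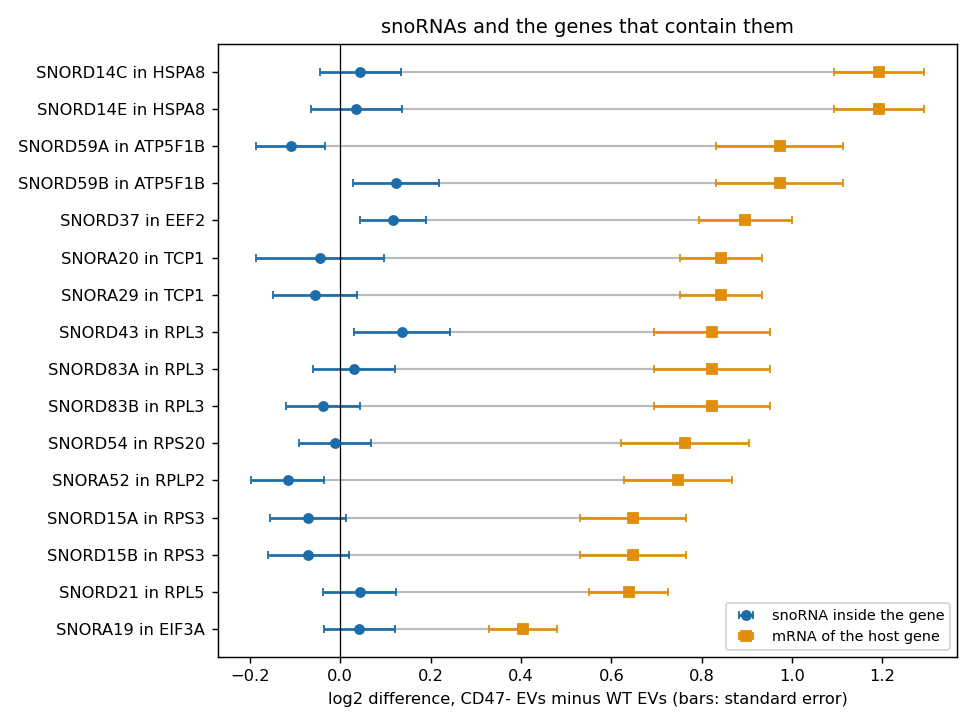
Log2 difference (CD47- EVs minus WT EVs) with standard error for 16 snoRNAs (blue circles) and for the host genes that contain them (orange squares), shown for the 10 hosts that passed the adjusted test. The snoRNAs lie between -0.12 and 0.14, and the hosts between 0.40 and 1.19.

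The start regions of the hosts that rose are shown because many snoRNA hosts belong to the genes with a terminal oligopyrimidine tract, a run of C and T letters that opens with C at the transcription start. RefSeq promoter sequences (GRCh38.p14) were given for 6 of the 10, and each line covers 30 bases before and 30 bases from the annotated start on the gene's strand. Capitals mark a run of at least 7 C or T letters that starts with C and overlaps the 25 bases around the start, searched on the transcribed strand only.
EEF2: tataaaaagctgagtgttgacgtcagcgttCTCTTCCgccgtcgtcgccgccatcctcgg
RPLP2: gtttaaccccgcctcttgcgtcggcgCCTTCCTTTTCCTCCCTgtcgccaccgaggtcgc
RPS3: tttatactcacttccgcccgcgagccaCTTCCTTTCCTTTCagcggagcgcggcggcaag
HSPA8: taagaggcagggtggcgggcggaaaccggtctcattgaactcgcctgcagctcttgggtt
TCP1: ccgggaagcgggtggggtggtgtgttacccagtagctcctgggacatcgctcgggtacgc
RPL3: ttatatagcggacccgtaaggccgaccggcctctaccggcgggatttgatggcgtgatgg
They lie at chr19:3985434-3985493 (minus strand, EEF2), chr11:809937-809996 (plus, RPLP2), chr11:75399488-75399547 (plus, RPS3), chr11:123062107-123062166 (minus, HSPA8), chr6:159789573-159789632 (minus, TCP1) and chr22:39319594-39319653 (minus, RPL3). The run was present in 3 of these 6 and in 32 of 85 hosts of members (37.6%). It was present in 10 of 12 ribosomal protein hosts, in 22 of 73 other hosts (30.1%) and in 5200 of all 27305 promoters (19.0%). HSPA8, with the largest difference, TCP1 and RPL3 had none in this window. A run at a start other than the annotated one would be missed.

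Proteins that build and use these RNAs were measured as mRNAs on the same arrays. Of the core snoRNP proteins, 6 of 8 were measured, all 6 differences were above 0 (median 0.12; 5 of 6 after further quantile normalization) and 0 passed. Fibrillarin (FBL), the methyltransferase of C/D box particles, read 7.07, 7.02 and 7.13 in CD47- EVs and 6.66, 6.85 and 6.72 in WT EVs, without overlap (difference 0.33, limma adjusted p = 0.10). Dyskerin (DKC1), the pseudouridine synthase of H/ACA box particles, differed by 0.23 (limma adjusted p = 0.36).

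Among 13 of 14 assembly factors measured, 2 rose (15.4%, against 0.668% of all genes) and 0 fell, and both are HSP90 chaperones with many other clients. HSP90AB1 read 6.97, 6.97 and 7.32 in CD47- EVs and 6.07, 6.16 and 5.55 in WT EVs (difference 1.16), and HSP90AA1 differed by 0.87. Of 31 proteins of the U3 processome, which assembles around U3 on the ribosomal precursor, 1 rose (3.23%, against 0.668% of all genes) and 0 fell. UTP4 read 5.47, 5.31 and 5.67 in CD47- EVs and 4.93, 4.95 and 4.89 in WT EVs (difference 0.56, limma adjusted p = 0.0134). It did not pass without CD47- replicate 3, WT replicate 1 or WT replicate 3.

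In the other lists 0 genes passed. They were 15 of 19 Cajal body, cap and transport proteins (GEMIN5 0.16, GEMIN4 0.20), 14 of 17 processing and decay enzymes (MTREX 0.22, EXOSC2 0.20) and 3 of 19 noncoding host transcripts. Of the last, ZFAS1 read 5.08, 5.20 and 5.00 in CD47- EVs and 4.83, 4.84 and 4.79 in WT EVs, without overlap (difference 0.28, limma adjusted p = 0.21), while SNHG17 differed by -0.06.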

How the data were processed

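The authors deposited log2 values. The submitters' processing notes name Affymetrix Expression Console and RMA without versions. RMA corrects background, normalizes by quantiles and summarizes probe sets, which compresses differences of dim probe sets. Of 33297 probe sets, 19460 had 1 symbol in the platform annotation, 1754 had several and 12083 had none. Only those with 1 symbol entered the tests, and the brightest per gene was used, with no filter on dim genes. The 46 genes of SNORD113 to SNORD116 were left out of the members. The methods describe no test for these arrays, so limma 3.58.1 in R 4.3.3 (lmFit, eBayes, two-sided, adjusted p under 0.05 over all genes) was used and tested on simulated data. Hosts were genes that contain a member in the RefSeq table, and strand was not used because the table gives none. Host and snoRNA were compared by their difference on each array, fitted in limma, a comparison chosen after the data were seen. Array number limits precision.

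Named genes were those with the smallest p and the highest mean per class, capped members, the widest ranges, and leading genes of each list and of the hosts. Members sharing a host or probe sets, non-overlapping members, further hosts and CD47 were named after their values were seen. The members and lists were chosen with earlier results of these data known. Alternatives covered centering, normalization, variance model, weights, filter, probe set, annotation, replicate block and leaving out each array.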

Additional observations from a re-analysis of the deposited data

How the results depend on the processing

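No member passed under any alternative except the replicate block, in which 1 did (SNORD13P1, adjusted p = 0.0158, limma, against 0.592% of all genes). The labels do not say whether replicate numbers pair the arrays. Deviations of same-numbered arrays correlated at 0.024, -0.017 and -0.037 over all genes and at 0.16, 0.36 and 0.059 over the members. Over all genes only the arrays numbered 1 correlated best with their own number. These values do not settle whether the numbers pair the arrays. The block gave 12 members at unadjusted p under 0.05, against 7. That count was 12 when centered on olfactory receptor genes, 2 with unshared variance and 4 to 13 without 1 array. It was 2 among genes above the olfactory receptor median, where only 40 members were tested. Members whose groups did not overlap numbered 8, against 15 when centered and 2 of the 40 above the median. Without 1 array they numbered 19 to 29, where fewer arrays make separation easier. Apart from centering, given above, these counts are not set beside shares of all genes, so they describe the settings and not the members. Centering moved the C/D box median to 0.046. Host genes called numbered 10, and 4 to 10 without 1 array. With unshared variance 0 hosts passed, and with the block 9 did, without EIF3A. The pairs with an interval above 0 numbered 21 to 29 without 1 array, an alternative added after seeing the data.

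Named genes changed sign in 22 cases and kept it in the others. They were SNORD13P2 (0.0050) and SNORD30 (0.0082) with array weights; SCARNA11 (0.038), SNORD13P2 (0.051), SNORD30 (0.046), SNORD46 (0.020) and SNORD95 (0.018) when centered; SCARNA17 (-0.082) and SNHG17 (0.065) with the dimmest probe set; and SCARNA16 (-0.093) after quantile normalization. Leaving out single arrays turned SNORA71D (-0.16 to 0.0057, without CD47- replicate 1), SCARNA16 (-0.061 to 0.068), SNORA62 (-1.16 to 0.11) and SNORD117 (-0.46 to 0.13, all without CD47- replicate 2), SNORD30 (-0.22 to 0.18, CD47- replicate 2 or WT replicate 1), SNORD95 (-0.15 to 0.039, CD47- or WT replicate 2), SCARNA6 (-0.16 to 0.016) and SNORD46 (-0.13 to 0.093, both WT replicate 1), and GEMIN4 (-0.023 to 0.32) and SNORD13P2 (-0.035 to 0.042, both WT replicate 3). None of these had passed. FBL passed only among genes above the gauge's median (adjusted p = 0.0416, limma). The cause was not tested, apart from centering, which shifts every gene by one amount per array. Signal over background limits the 106 dimmer members most.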

Other observations

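Other small structured noncoding RNAs were measured beside the snoRNAs, with 19 of 28 listed genes having a probe set of their own, and 0 passed the adjusted test. RNU5E-1, a U5 spliceosomal RNA gene, read 5.68, 6.41 and 6.43 in CD47- EVs and 5.50, 6.03 and 5.71 in WT EVs, with overlap (difference 0.43, limma adjusted p = 0.57, and 0.0499 without CD47- replicate 1). RNU5A-1, of the same RNA family, read 3.04, 3.05 and 3.18 in CD47- EVs and 2.74, 2.95 and 2.91 in WT EVs, without overlap (difference 0.23, limma adjusted p = 0.43).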
